A study of Mus musculus with 18 samples.

Results

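Dync2h1 knockout and wild-type IMCD3 cells, both held under flow, were compared through 6 of the 18 libraries of the series, 3 from each genotype. IMCD3 is an epithelial cell line from the mouse inner medullary collecting duct, with the strain background Tg(SV40E)bri/7, and the cells were at passage 10 to 15. The knockout group consisted of Dync2h1 knockout cells and the other group of wild-type (WT) cells, and all 6 cultures had spent 3 h in microslide chambers at a shear stress of about 0.7 dyne/cm2. Total RNA was sequenced and deposited as TPM, a transcript abundance corrected for length and scaled to the same total in each library, for 49845 gene names. A gene was kept when it reached at least 1 TPM in 3 or more of the 6 libraries, which 15145 did. The labels do not say how the knockout was made, how many clones the line came from or whether replicates were separate cultures, so p-values measure the spread between these samples, which may be technical. The remaining 12 libraries (both genotypes in static culture, and Ift140 knockout cells under flow and in static culture) entered the same fit and are quoted where they set the 6 libraries in context.

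Dync2h1 encodes the heavy chain of cytoplasmic dynein 2, the motor that carries intraflagellar transport (IFT) trains from the tip of the primary cilium back to its base. Trains move outward on kinesin-2 with the IFT-B complex and return with dynein-2 and the IFT-A complex, to which Ift140 belongs. In kidney tubule cells the cilium projects into the lumen, where it bends under urine flow, and it holds receptors and channels such as the polycystins and Smoothened. The study's design text sets ciliated against non-ciliated cells under flow, and the comparison here asks how the transcriptomes of Dync2h1 knockout and wild-type cells differ while flow is on.

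The libraries fell by genotype. The first principal component of the kept genes held 62.9% of the variance, with the knockout libraries between 30.2 and 40.5 and the wild-type libraries between -36.2 and -34.0. Pearson correlations of log2 values were 0.981 to 0.985 within a genotype and 0.945 to 0.956 between genotypes. On the second component, with 10.4% of the variance, wild-type replicate 1 stood apart at 28.3, against -12 and -16.9 for its fellow replicates and -1.20 to 2.92 for the knockout. TPM carries no read depth, so counting error is unknown. The collecting duct label held only in part. Kidney epithelial genes were high (Krt8, Krt18, Cdh16, Epcam, Cdh1), summing over the 8 markers to 4200 to 4380 TPM in the knockout and 3500 to 3600 TPM in wild type. All 7 principal cell markers (among them Aqp2, Avpr2 and the sodium channel subunits Scnn1a, Scnn1b and Scnn1g) and all 4 intercalated cell markers stayed under 1 TPM in all 6 libraries. The 3 proximal tubule markers summed to 1.25 to 2.37 TPM in the knockout and 0.494 to 4.3 TPM in wild type, all Slc5a2. The 2 thick limb markers summed to 0.0961 to 1.13 TPM in the knockout and 1.29 to 2.06 TPM in wild type, all Umod. The 5 endothelial markers summed to 0.315 to 0.566 TPM in the knockout and 0.188 to 1.08 TPM in wild type. The 5 fibroblast markers summed to 0.394 to 0.673 TPM in the knockout and 1.92 to 2.11 TPM in wild type, with Lum at 0 in all 6. The 5 leukocyte markers summed to 13 to 18.1 TPM in the knockout and 10.8 to 11.7 TPM in wild type, almost all of it Csf1r and Cd68, with Adgre1 and Cd3e at 0. In RNA pooled from a culture, fewer cells of a kind and less RNA per cell cannot be told apart.

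Under flow, 2697 genes were higher (17.8% of those tested) and 2294 lower (15.1%) in the knockout than in wild type at an adjusted p under 0.05. These p-values, like every adjusted p below, come from limma on log2(TPM + 1) after a scaling between libraries, with Benjamini-Hochberg adjustment over all 15145 genes, and fold changes on that scale understate the change of low genes. At least a 2-fold difference was present for 410 of the higher and 444 of the lower genes, and at least an 8-fold difference for 10 and 31. The median log2 difference over all genes was 0.02, and 90% of genes lay between -0.81 and 0.81. The 3 knockout and 3 wild-type libraries did not overlap for 7438 genes (49.1%). Non-overlap was a condition for naming the largest rises and falls below, so for them it is no separate support. The split depended on the scaling: with the deposited TPM left unscaled, the median of all genes moved to -0.10, and 1528 genes were higher and 2902 lower. The kinds of gene called also differed by direction. Of 11523 protein-coding genes, 1825 were higher and 2042 lower, whereas of 1658 processed pseudogenes 596 were higher and 110 lower, and of 249 small nucleolar RNA genes 34 were higher and none lower. Reads of a processed pseudogene can be shared with its parent gene, so those values are uncertain.

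**Figure D1:**
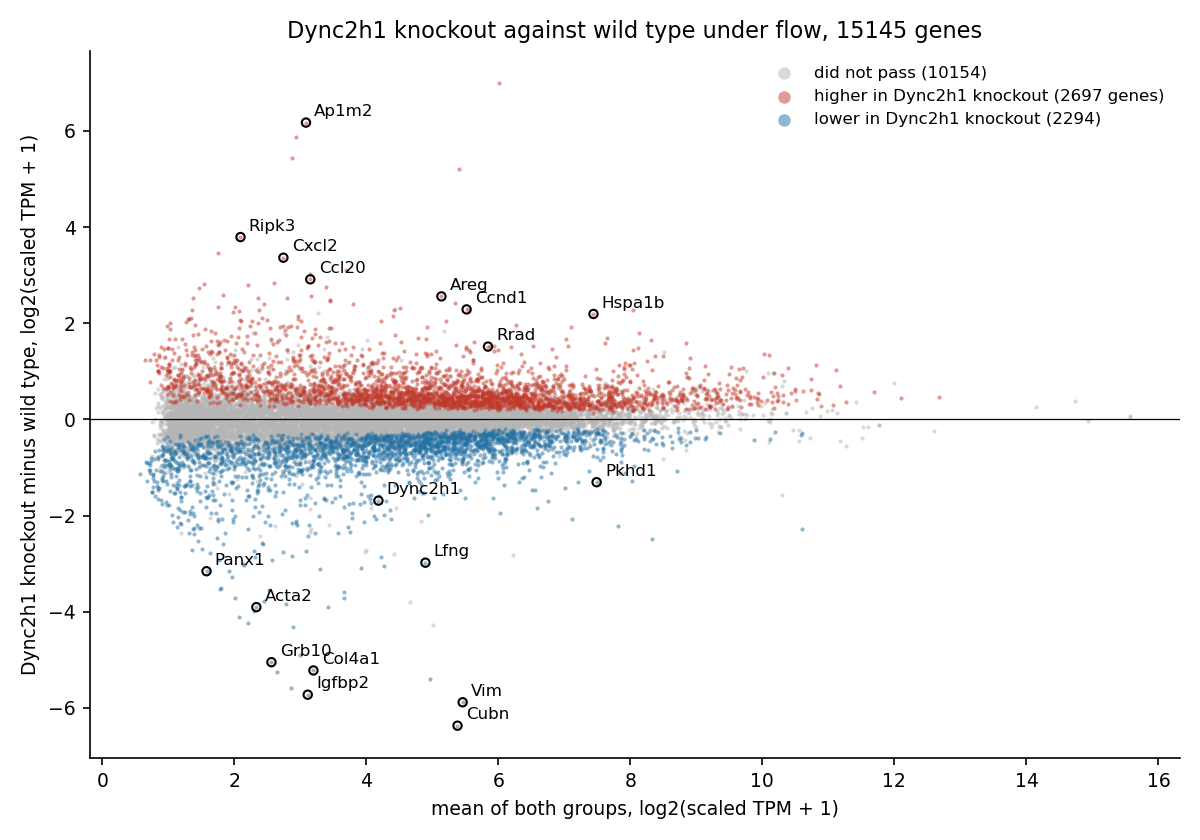
Difference between Dync2h1 knockout and wild type under flow for 15145 genes (vertical axis, log2 of scaled TPM + 1) against the mean level of both groups (horizontal axis, same scale). Red points are the 2697 genes higher and blue points the 2294 genes lower in the knockout at an adjusted p under 0.05, grey points did not pass. Cubn, Vim and Igfbp2 lie lowest and Ap1m2 among the highest.

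Dync2h1 itself (chromosome 9, 6928503 to 7184446, minus strand, GRCm38) was lower but present. It stood at 7.07, 10.0 and 10.4 TPM in the knockout libraries, against 35.5, 28.1 and 31 TPM in the wild-type libraries. The groups did not overlap, and the log2 difference was -1.69 (SE 0.21, adjusted p = 1.78e-05). Ift140 stood at 19.6, 17.3 and 13.9 TPM in the Dync2h1 knockout, against 16.5, 15.1 and 18.5 TPM in wild type, with overlapping libraries and a log2 difference of 0.01 (SE 0.19, adjusted p = 0.971). Genes next to Dync2h1 on the chromosome were lower too. Dcun1d5, a regulator of cullin neddylation whose start lies beside that of Dync2h1, had 65.5, 61.8 and 67.8 TPM in the knockout, against 152, 157 and 142 TPM in wild type (log2 -1.19, SE 0.10). Yap1, the coactivator of the Hippo pathway a few genes further on, had 23.5, 23.9 and 24.9 TPM in the knockout, against 50.3, 46.3 and 51.3 TPM in wild type (log2 -1.0, SE 0.09). Casp12, an inflammatory-type caspase on the other side, had 0.169, 0.235 and 0.374 TPM in the knockout, against 10.2, 11.9 and 11.4 TPM in wild type. These 3 were chosen by their position after their values were seen. Birc3 and Pdgfd, also close by, did not pass (log2 0.01 and -0.35).

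Over the whole start of chromosome 9, before 16 Mb, 27 of the 35 other protein-coding genes were lower and 2 higher, with a median log2 difference of -0.91. The remaining 616 protein-coding genes of the chromosome had a median of 0.01, with 92 higher and 75 lower. In static culture the same 35 genes had a median of -0.98 between the genotypes, and in the Ift140 knockout under flow one of -0.13 against the same wild-type libraries. Whole chromosomes also stood off the all-gene median. The median was -0.33 on chromosome 1, where 40.6% of 922 genes were lower, and -0.32 on chromosome 6, where 41.4% of 737 were lower. It was -0.16 on chromosome 5, with 27.8% of 1006 genes lower, and 0.19 on chromosome 15, with 30.7% of 525 genes higher. All other numbered chromosomes and X lay within 0.10 of 0. In static culture the medians of chromosomes 1, 5, 6 and 15 were -0.34, -0.19, -0.32 and 0.15. DNA copy number was not analysed here, and its part in these differences was not tested. Chromosomes 1, 5, 6 and 15 and the start of chromosome 9 held 1039 of the lower and 461 of the higher genes. When their 3235 genes were left out, a choice made after seeing the data, 2161 genes were higher and 1213 lower. How many members of a gene group lie on these stretches is therefore given for several groups below.

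**Figure D2:**
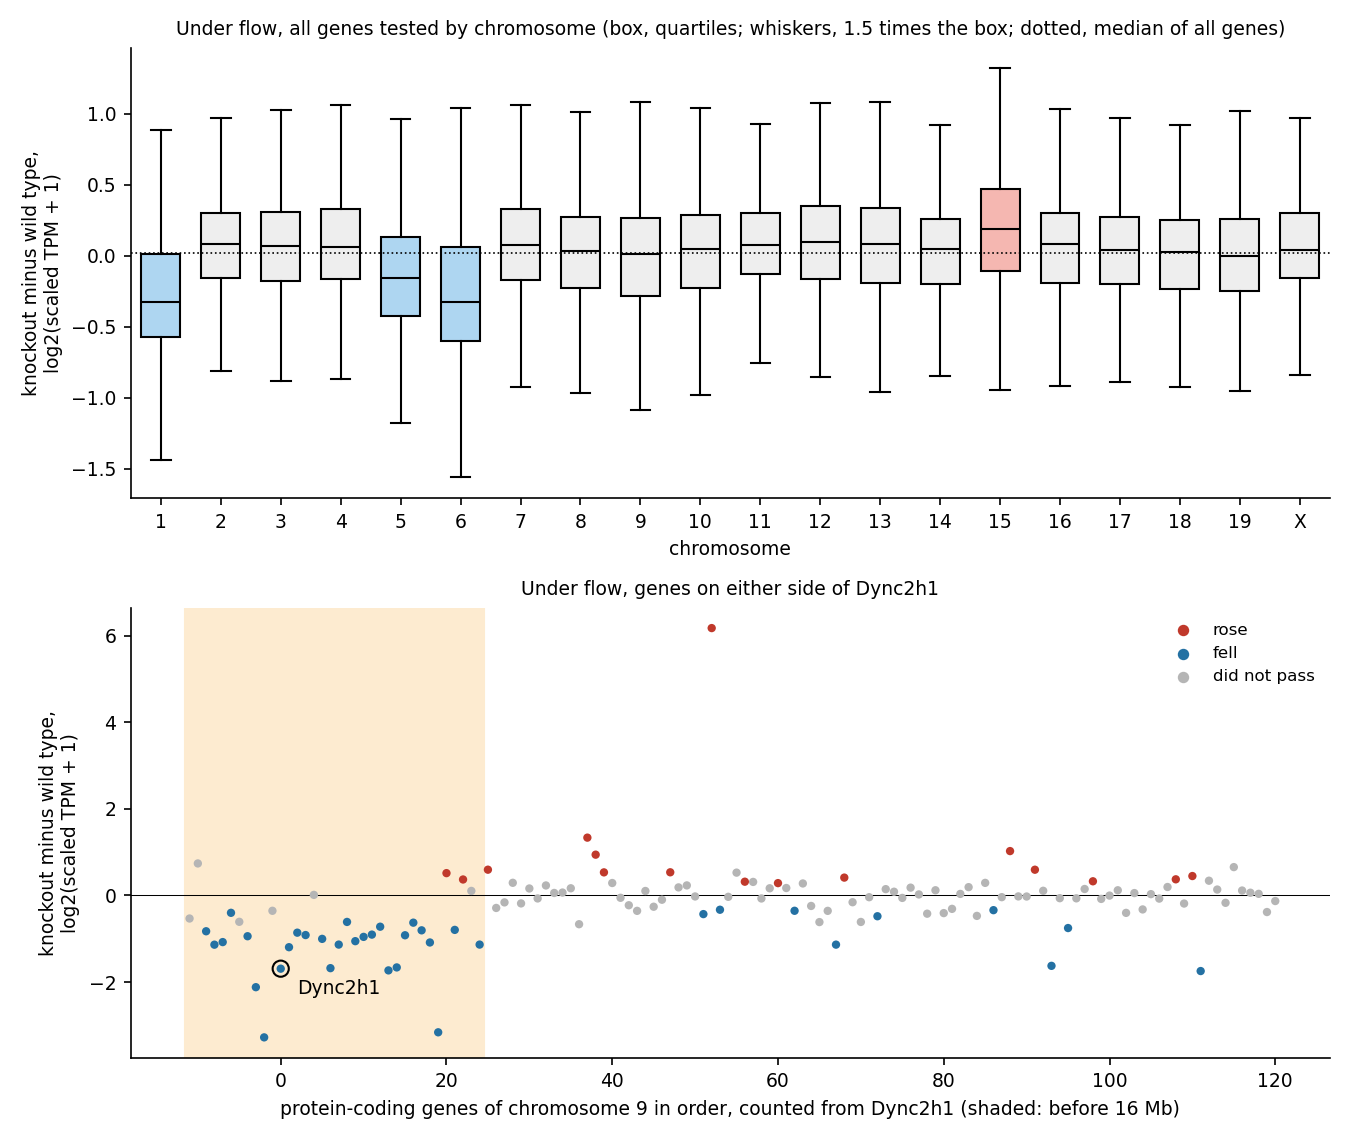
Top, log2 difference between Dync2h1 knockout and wild type under flow for all genes tested, by chromosome, with chromosomes 1, 5 and 6 in blue and 15 in red. Bottom, the protein-coding genes of chromosome 9 in their order from Dync2h1 (circled), out to the 120th gene on the right. Most genes in the shaded start of the chromosome lie near -1, and those beyond it scatter around 0.

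Among the highest rises were genes that wild-type cells barely expressed. Ap1m2, the epithelial medium chain of the AP-1 clathrin adaptor, stood at 70.6, 74.8 and 68.1 TPM in the knockout and was listed at 0 in all 3 wild-type libraries. Ripk3, a kinase of necroptosis, had 17.9, 13.1 and 13.7 TPM in the knockout, against 0.366, 0 and 0.0793 TPM in wild type (log2 3.79, SE 0.23, adjusted p = 7.48e-09). Non-overlap of the groups was a condition for naming the largest rises. Apln, the ligand of the apelin receptor, had 15.9, 15.4 and 14.5 TPM in the knockout, against 1.21, 1.16 and 1.46 TPM in wild type. Procr, the endothelial protein C receptor, had 23.0, 21.7 and 17.6 TPM in the knockout, against 2.78, 2.22 and 2.99 TPM in wild type. Areg, the EGF receptor ligand amphiregulin, reached 85.3, 81.4 and 85.1 TPM in the knockout, against 16.3, 13.7 and 10.8 TPM in wild type (log2 2.56, SE 0.21). The Ras-family gene Rasef, the membrane serine protease Hpn, the actin regulator Gmfg, the transglutaminase Tgm1 and the adaptor Bcar3 rose by log2 2.42 to 2.74. Mir686, at 14.3, 2.56 and 5.52 TPM in the knockout, was listed at 0 in wild type. The rises of the pseudogenes Rps12l1 and Rpl36-ps10 and of Mir686 are uncertain because such short or copied sequences share reads with other loci.

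The largest falls were near losses. Cubn, the endocytic receptor cubilin, had 3.07, 4.11 and 3.57 TPM in the knockout, against 430, 354 and 351 TPM in wild type (log2 -6.37, SE 0.16, adjusted p = 1.87e-13). Vim, the intermediate filament vimentin, had 5.35, 5.07 and 3.82 TPM in the knockout, against 325, 344 and 339 TPM in wild type (log2 -5.88, SE 0.12, adjusted p = 1.01e-14). Igfbp2, a binding protein of insulin-like growth factors, had 0.438, 0 and 0.15 TPM in the knockout, against 60.5, 63.3 and 61.0 TPM in wild type. Each of the 3 separated the groups by far more than the spread between replicates. Ank2, an ankyrin of the membrane skeleton, was at or under 0.0225 TPM in the knockout and at 34.0 to 42.7 TPM in wild type. Grb10, an imprinted adaptor of insulin receptor signalling, was at or under 0.045 TPM in the knockout and at 29.8 to 35.3 TPM in wild type. Pygl (liver glycogen phosphorylase), Enpep (glutamyl aminopeptidase), Cd34 (a sialomucin), Aldh2 (mitochondrial aldehyde dehydrogenase), Camk1 (a calmodulin-dependent kinase) and Stc2 (stanniocalcin 2) fell by log2 3.78 to 4.31. Panx1, the channel pannexin 1 that releases ATP, was listed at 0 in all 3 knockout libraries and had 7.51, 7.83 and 8.48 TPM in wild type. It lies in the start of chromosome 9. Mir3083 also ranked among the falls, with knockout libraries at 0, 7.39 and 6.03 TPM and wild-type libraries at 121, 125 and 283 TPM.

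**Figure D3:**
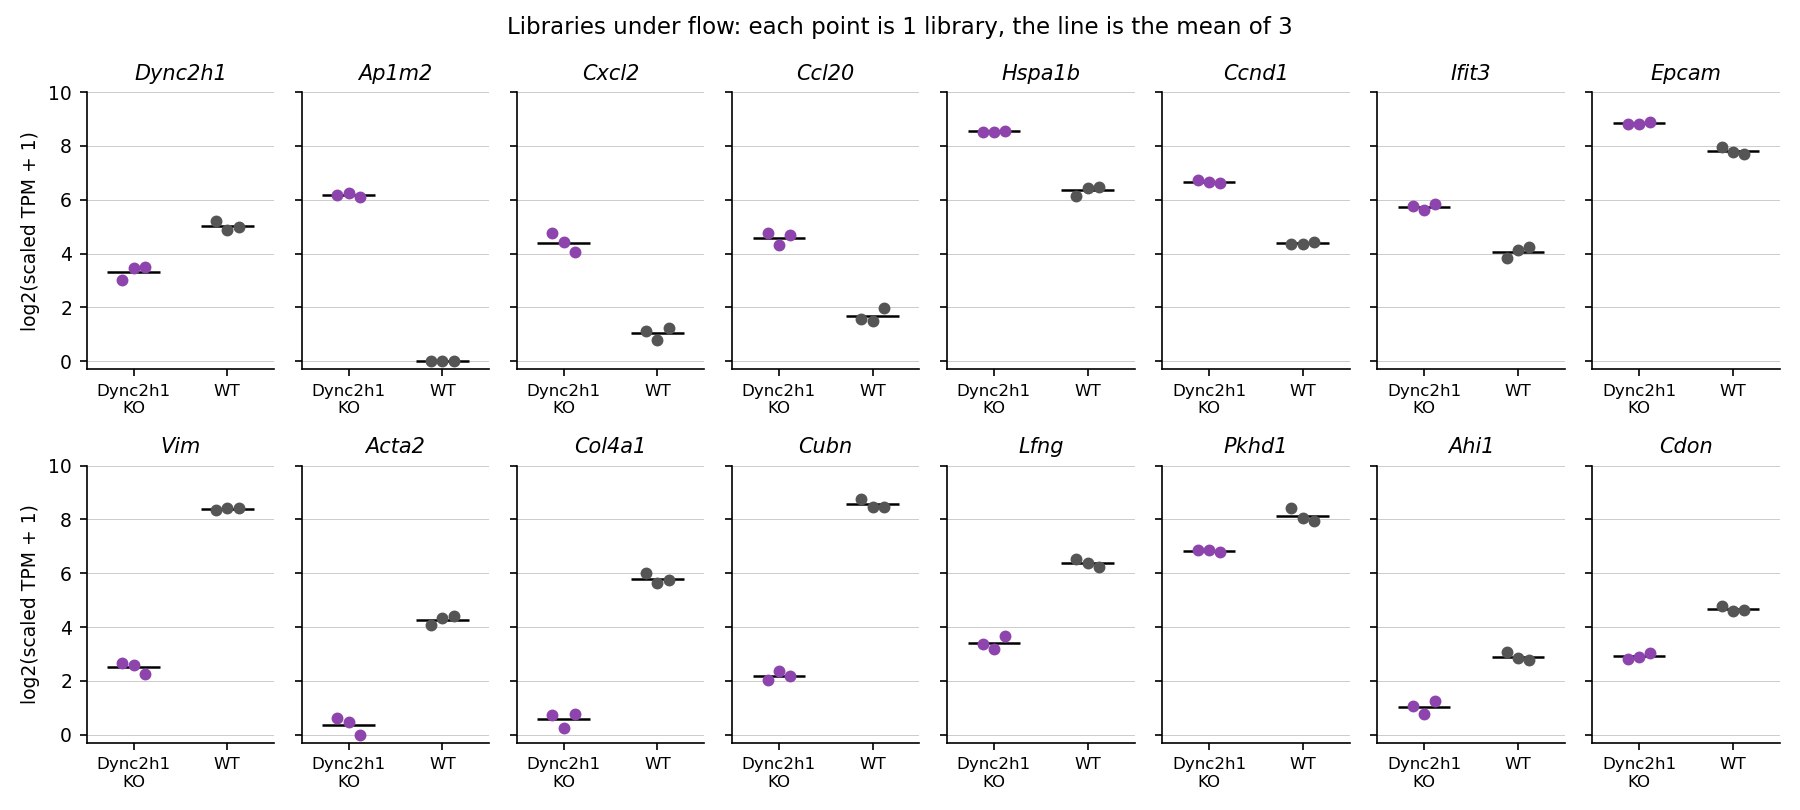
Levels of 16 genes in the 6 libraries under flow, as log2 of scaled TPM + 1 (vertical axis), with Dync2h1 knockout left and wild type right in each panel and a line at the mean of 3. The groups do not overlap in any panel, with the knockout higher from Ap1m2 to Epcam and lower for Dync2h1 and from Vim to Cdon. Non-overlap was a condition for naming the largest rises and falls, and held for 49.1% of all genes tested.

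Genes of the mesenchymal state fell and several epithelial genes rose. Of the 16 listed mesenchymal genes 11 were measured, and 8 fell and 1 rose, beside 15.1% lower and 17.8% higher over all genes. Their median log2 difference was -1.65, beside 0.02 for all genes. Next to Vim, the smooth muscle actin gene Acta2 had 0.540, 0.394 and 0 TPM in the knockout, against 16, 19 and 20.3 TPM in wild type (log2 -3.91, SE 0.19). Twist1, a transcription factor of epithelial-mesenchymal transition, had 0.0899, 0.256 and 0.246 TPM in the knockout, against 4.83, 5.16 and 4.23 TPM in wild type. Tagln, an actin-binding protein of smooth muscle, had 1.26, 1.04 and 1.25 TPM in the knockout, against 11, 13.5 and 11.6 TPM in wild type. The exceptions were S100a4, which rose by log2 1.08, and the cadherins Cdh2 and Cdh3, which did not pass (0.19 and 0.01). Of 21 measured epithelial genes 9 rose and none fell, with a median of 0.27. With deposited TPM these counts were 7 and 1. The adhesion molecule Epcam had 448, 450 and 467 TPM in the knockout, against 248, 216 and 207 TPM in wild type (log2 1.03, SE 0.10). The splicing regulator Esrp1, the keratin Krt7 and the transcription factor Grhl2 rose by log2 0.93, 0.53 and 0.68. Krt8, Krt19 and Ehf did not pass, with log2 differences of 0.06, -0.04 and -0.02.

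Basement membrane genes included some of the largest falls. Of 29 measured matrix genes 17 fell and 3 rose (58.6% and 10.3%, against 15.1% and 17.8% of all genes). Their median log2 difference was -0.76. With each of the 6 libraries left out in turn 14 to 17 fell and 3 rose, and the median was weakest, at -0.68, without wild-type replicate 1. With deposited TPM 17 fell and 1 rose. Col4a1 and Col4a2 encode the alpha 1 and alpha 2 chains of collagen IV. Col4a1 had 0.652, 0.181 and 0.694 TPM in the knockout, against 63.4, 48.9 and 52.5 TPM in wild type (log2 -5.22, SE 0.17, adjusted p = 7.19e-12). Col4a2 had 0.202, 0.139 and 1.16 TPM in the knockout, against 43.1, 42.2 and 40.0 TPM in wild type (log2 -4.90, SE 0.20, adjusted p = 9.02e-11). Every knockout library lay far below every wild-type library for both, and non-overlap was a condition for naming the largest falls. The collagen IV genes Col4a3, Col4a4 and Col4a5, which lie elsewhere, did not pass, with log2 differences of -0.40, -0.41 and -0.11. Nid2, the linker protein nidogen 2, had 2.42, 1.88 and 2.76 TPM in the knockout, against 29.9, 27.6 and 26.5 TPM in wild type, and the fibril-associated collagen Col12a1 fell by log2 2.34. Lama5 and Lamb2, laminin chains, did not pass.

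Col4a1 and Col4a2 are transcribed away from each other from neighbouring starts, and their promoters are shown because both genes are nearly lost together. The windows, from RefSeq (GRCm38.p6), run from 250 bases before to 50 bases after each gene's start and share 78 bases. Capitals mark the GC box GGGCGG on either strand. Col4a1 holds 1 match (chr8:11312777-11313076, minus strand) and Col4a2 holds 3 (chr8:11312555-11312854, plus strand). The Col4a1 match and the last Col4a2 match are the same bases, within the shared 78. They begin 9 bases after the Col4a1 start and 7 bases after the Col4a2 start. The motif is common, in 35.7% of all 32851 promoters of the table. The 19 measured matrix genes found there have 24 promoters, of which 16 (66.7%) hold the motif, in 13 genes.
Col4a1: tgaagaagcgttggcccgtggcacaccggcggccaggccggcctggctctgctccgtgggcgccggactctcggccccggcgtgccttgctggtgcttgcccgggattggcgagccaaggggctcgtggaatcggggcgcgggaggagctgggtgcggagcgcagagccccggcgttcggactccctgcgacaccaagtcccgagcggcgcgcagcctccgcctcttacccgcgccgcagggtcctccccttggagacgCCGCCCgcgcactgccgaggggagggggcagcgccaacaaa
Col4a2: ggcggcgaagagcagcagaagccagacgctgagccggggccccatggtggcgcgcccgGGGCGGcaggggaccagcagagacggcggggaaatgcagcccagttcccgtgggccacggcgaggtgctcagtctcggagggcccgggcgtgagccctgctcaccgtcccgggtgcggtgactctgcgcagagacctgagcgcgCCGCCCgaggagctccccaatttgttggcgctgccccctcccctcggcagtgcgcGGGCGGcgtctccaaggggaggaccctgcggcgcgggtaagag

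Heat shock genes were higher under flow in the knockout. Of 19 listed genes 17 rose and 1 fell, where 17.8% of all genes rose and 15.1% fell. The listed genes had a median log2 difference of 0.67. Their levels summed to 8403 to 8486 TPM in the knockout and 4515 to 4784 TPM in wild type. With deposited TPM 11 rose and 1 fell. The inducible chaperone Hspa1b had 369, 368 and 372 TPM in the knockout, against 69.9, 84.6 and 87.2 TPM in wild type (log2 2.19, SE 0.09, adjusted p = 9.25e-11). Reads of Hspa1b and its near-identical copy Hspa1a (11.1 ± 0.58 TPM in the knockout and 5.28 ± 0.97 TPM in wild type, SD, n = 3 each) can be exchanged, so their split is uncertain. Hsp90aa1, the inducible cytosolic HSP90, averaged 1938 ± 6.51 TPM in the knockout and 919.3 ± 23.5 TPM in wild type (SD, n = 3 each). Hspa8, the constitutive HSC70, averaged 2270 ± 42.8 TPM in the knockout and 1278 ± 34.7 TPM in wild type (SD, n = 3 each). The exception was the small heat shock gene Hspb8, with 8.16, 8.50 and 8.0 TPM in the knockout, against 27.8, 30.3 and 31 TPM in wild type (log2 -1.74, SE 0.09). Dnajb4 did not pass (0.03).

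Several chemokine and NF-kB genes rose strongly. NF-kB is a transcription factor that inflammatory signals release from its inhibitor, whose gene Nfkbia it then induces. Of 21 measured genes 11 rose (52.4%, against 17.8% of all genes) and 4 fell (19%, against 15.1%). Their median log2 difference was 0.50. Cxcl2, a neutrophil chemokine, had 25.9, 20.3 and 15.6 TPM in the knockout, against 1.2, 0.712 and 1.33 TPM in wild type (log2 3.36, SE 0.19, adjusted p = 4.72e-09). Ccl20, a chemokine for CCR6-bearing cells, had 26.1, 19.1 and 24.9 TPM in the knockout, against 1.96, 1.85 and 2.92 TPM in wild type (log2 2.91, SE 0.21). Nfkbia had 103, 78.3 and 76.2 TPM in the knockout, against 23.9, 27.5 and 30.9 TPM in wild type (log2 1.60, SE 0.15). The groups did not overlap for any of the 3, as for 49.1% of all genes tested. For Cxcl2 and Ccl20 this was a condition for naming them among the largest rises. The membrane-bound chemokine Cxcl16 and the NF-kB target Tnfaip2 rose by log2 1.19 and 1.39. The subunit genes Nfkb1 and Relb did not pass, with log2 differences of 0.12 and -0.14.

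The promoters of Cxcl2, Ccl20, Nfkbia and Hspa1b are shown because these genes were much higher under flow and, as given below, their genotype difference was larger there than in static culture. They are RefSeq windows on GRCm38.p6, 250 bases before to 50 after the gene start, 5′ to 3′ on the gene's strand. In the NF-kB genes, capitals mark GGG and TTTCC with any 2 bases between them, an NF-kB-type motif searched on both strands. Cxcl2 (chr5:90903649-90903948, plus strand) has 2 matches, which begin 97 and 78 bases before the start. Ccl20 (chr1:83116516-83116815, plus strand) has 1, beginning 80 bases before the start, and Nfkbia (chr12:55492598-55492897, minus strand) has 1, beginning 29 bases before it. In Hspa1b (chr17:34959189-34959488, minus strand) capitals mark GAANNTTC, part of a heat shock element that reads alike on both strands, with 1 match beginning 104 bases before the start. The NF-kB-type letters occur in 1.63% of all 32851 promoters of the table. The 12 measured NF-kB and cytokine genes found there have 15 promoters, of which 9 (60%) hold the letters, in 7 genes. The heat shock letters occur in 7.86% of all promoters. The 14 heat shock genes found there have 20 promoters, of which 11 (55%) hold the letters, in 10 genes. A match describes the sequence only.
Cxcl2: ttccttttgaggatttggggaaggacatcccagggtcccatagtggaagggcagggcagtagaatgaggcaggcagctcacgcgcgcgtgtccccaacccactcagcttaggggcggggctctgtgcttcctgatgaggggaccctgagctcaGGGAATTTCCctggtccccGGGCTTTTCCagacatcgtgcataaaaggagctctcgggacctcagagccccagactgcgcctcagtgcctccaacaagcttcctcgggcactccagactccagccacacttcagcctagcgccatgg
Ccl20: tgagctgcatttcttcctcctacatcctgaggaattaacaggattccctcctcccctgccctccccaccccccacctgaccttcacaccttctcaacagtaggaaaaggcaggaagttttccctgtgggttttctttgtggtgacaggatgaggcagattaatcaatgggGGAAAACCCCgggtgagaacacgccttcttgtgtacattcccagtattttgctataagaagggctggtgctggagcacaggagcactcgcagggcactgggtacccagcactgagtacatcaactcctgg
Nfkbia: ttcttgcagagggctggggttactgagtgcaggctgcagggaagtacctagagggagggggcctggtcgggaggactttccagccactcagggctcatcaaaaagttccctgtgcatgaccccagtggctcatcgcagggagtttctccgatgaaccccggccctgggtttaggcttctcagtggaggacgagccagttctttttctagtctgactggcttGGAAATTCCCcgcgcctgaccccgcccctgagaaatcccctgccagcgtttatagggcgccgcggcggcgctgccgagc
Hspa1b: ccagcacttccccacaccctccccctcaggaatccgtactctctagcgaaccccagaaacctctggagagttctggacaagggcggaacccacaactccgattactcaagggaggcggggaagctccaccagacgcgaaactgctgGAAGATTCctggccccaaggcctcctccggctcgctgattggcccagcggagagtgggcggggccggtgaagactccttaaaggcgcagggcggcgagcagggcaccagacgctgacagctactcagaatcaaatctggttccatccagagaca

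Interferon-stimulated and antigen presentation genes rose without a single fall among 28 measured. The number that rose was 19 (67.9%, where 17.8% of all genes rose and 15.1% fell), with a median log2 difference of 0.68. That number was 15 to 21 when each of the 6 libraries was left out in turn. Ifit3, an interferon-induced antiviral gene, had 53.1, 48.2 and 56.6 TPM in the knockout, against 13.4, 16.3 and 17.8 TPM in wild type (log2 1.68, SE 0.12, adjusted p = 3.54e-08). Rsad2, the antiviral enzyme viperin, had 11.6, 6.72 and 9.76 TPM in the knockout, against 0.860, 1.82 and 2.04 TPM in wild type. B2m, the light chain of MHC class I, had 184, 142 and 202 TPM in the knockout, against 113, 104 and 101 TPM in wild type (log2 0.71, SE 0.11). The knockout libraries were uneven here, with replicate 2 the lowest of the 3 for each of Ifit1, Ifit3, Rsad2 and B2m. Without knockout replicate 2, 21 genes rose and the median was 0.80. Stat2 and Gbp2 did not pass, with log2 differences of 0.09 and 0.01.

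Most genes that build or fill the cilium did not pass the test, and nearly all that did were lower. Over all genes tested 15.1% were lower and 17.8% higher. In the dynein-2 and IFT-A list 4 of 15 measured genes fell (26.7%) and none rose. Besides Dync2h1 these were the IFT-A genes Ift122 (log2 -0.53) and Wdr19 (-0.69) and the dynein-2 light intermediate chain Dync2li1, which had 10.3, 11.3 and 15.5 TPM in the knockout, against 18.7, 20.3 and 24.1 TPM in wild type (-0.73, adjusted p = 0.0123). Without knockout replicate 1 the fall of Dync2li1 did not pass (adjusted p = 0.0607), nor did it without wild-type replicate 3 (adjusted p = 0.0537). In the IFT-B and kinesin-2 list 6 of 21 fell and 1 rose, with a median of -0.38. With deposited TPM 10 of the 21 fell and none rose. Ift80, Ift22, Ttc26 and the kinesin-2 accessory gene Kifap3 fell by log2 0.72, 0.47, 0.77 and 0.70. Of 13 BBSome genes, whose products carry membrane proteins in the cilium, 3 fell (23.1%), Bbs2 by log2 0.76. Without knockout replicate 1, wild-type replicate 1 or wild-type replicate 2 only 1 fell, and with deposited TPM 6 did. Of the 13 falls in these 3 lists, 7 were on the stretches of chromosomes 1, 5, 6, 9 or 15 named above. At the transition zone, the gate at the ciliary base, 10 of 23 fell and none rose, with a median of -0.39. Ahi1 had 1.07, 0.682 and 1.36 TPM in the knockout, against 7.37, 6.25 and 5.80 TPM in wild type (log2 -1.89, SE 0.16, adjusted p = 4.52e-07). Cc2d2a had 5.50, 3.93 and 5.12 TPM in the knockout, against 19.7, 15.0 and 18.4 TPM in wild type (log2 -1.68, SE 0.16). Arl13b, a GTPase of the ciliary membrane, and Tctn1 fell by log2 0.59 and 0.95. The 6 falls outside the stretches named above included Ahi1 and Arl13b.

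Several genes of the Hedgehog pathway, which signals through the cilium, were lower. Of 12 measured genes 7 fell (58.3%) and none rose, where 15.1% of all genes fell and 17.8% rose. Their median log2 difference was -0.46, and 3 of the 7 falls lay outside the stretches named above. The co-receptor Cdon had 6.06, 6.46 and 7.22 TPM in the knockout, against 26.5, 23.2 and 23.5 TPM in wild type (log2 -1.74, SE 0.13, adjusted p = 9.72e-08). Smo, the signal transducer Smoothened on chromosome 6, had 62.6, 67.0 and 57.0 TPM in the knockout, against 113, 120 and 116 TPM in wild type (log2 -0.90, SE 0.07). Evc, a ciliary partner of Smo on chromosome 5, fell by log2 1.30, and the co-receptor Gas1, under 0.1 TPM in the knockout, by 1.41. Ptch1, receptor and target of the pathway, did not pass, with 5.99, 7.21 and 6.92 TPM in the knockout, against 4.89, 4.76 and 2.89 TPM in wild type (log2 0.59, adjusted p = 0.06). Among 14 polycystin, mechanosensitive channel and purinergic genes 6 fell and none rose, 4 of them on the stretches named above. Pkhd1, fibrocystin of the cilium (chromosome 1), had 114, 114 and 109 TPM in the knockout, against 344, 264 and 242 TPM in wild type (log2 -1.31, SE 0.11). Pde4c, a cyclic AMP phosphodiesterase, and the ATP-gated channel P2rx4 fell by log2 1.13 and 0.78. Piezo1, Trpv4 and Adcy6 did not pass, with log2 differences of -0.09, -0.23 and -0.07.

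**Figure D4:**
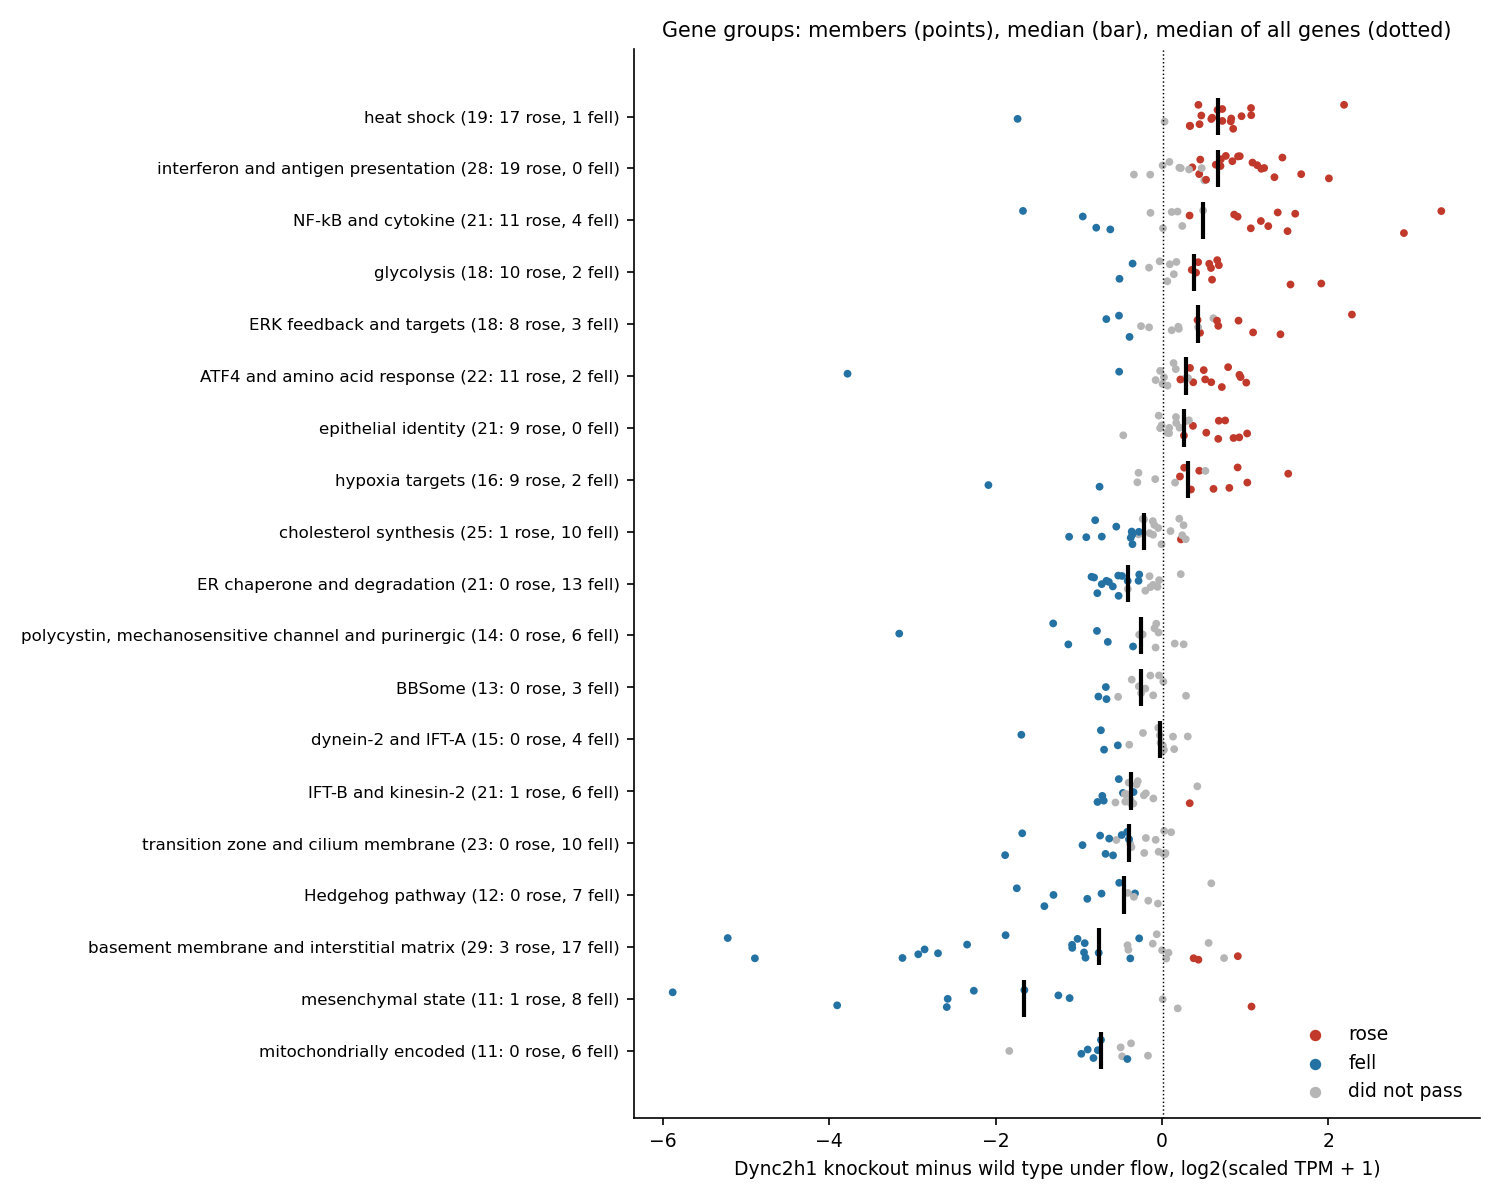
Log2 difference between Dync2h1 knockout and wild type under flow (horizontal axis) for the measured members of 19 gene groups, with red for higher and blue for lower at an adjusted p under 0.05 and grey for not passed. Black bars are group medians, and the dotted line is the median of all genes at 0.02. Mesenchymal and matrix groups reach furthest left, and heat shock, interferon and NF-kB groups lie to the right.

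Signalling genes moved in both directions. Over all genes tested 17.8% were higher and 15.1% lower. Of 18 ERK feedback and target genes 8 rose and 3 fell, with a median log2 difference of 0.43. With deposited TPM 5 rose and 3 fell. Cyclin D1 (Ccnd1) had 105, 99.7 and 96.4 TPM in the knockout, against 19.5, 19.4 and 20.4 TPM in wild type (log2 2.29, SE 0.07, adjusted p = 1.05e-12). The ETS factor Etv4, the feedback inhibitor Spry2 and Ier3 rose by log2 1.43, 1.10 and 0.68. In the Notch pathway 4 of 12 rose and 4 fell. Lfng, the glycosyltransferase lunatic fringe that modifies Notch, had 9.21, 8.10 and 11.6 TPM in the knockout, against 91.1, 81.5 and 74.6 TPM in wild type (log2 -2.98, SE 0.13). The ligand gene Jag1 fell by log2 1.31 and Jag2 rose by 1.35. In the TGF-beta and BMP list 9 of 21 fell and 2 rose, with the activin subunit Inhbb at 2.84, 3.09 and 3.40 TPM in the knockout, against 20.04, 21.1 and 19.3 TPM in wild type, and the ligands Tgfb3 and Bmp4 lower by log2 1.96 and 1.04. In the WNT list 6 of 17 fell and 1 rose, with the R-spondin receptor Lgr4 at 27.2, 35.8 and 33.8 TPM in the knockout, against 128, 131 and 121 TPM in wild type. Of 16 YAP and TAZ targets 4 rose and 5 fell, but 1 rose with deposited TPM, and 2 or 3 rose and 3 to 5 fell with each of the 6 libraries left out. On the stretches named above lay 3 of these 5 falls, 3 of the 9 TGF-beta and BMP falls and 2 of the 6 WNT falls. Of 22 immediate early genes 3 rose (13.6%) and 5 fell (22.7%), not far from the shares over all genes. Of these 5 falls 3 lay on the stretches named above. Among plasminogen and matrix protease genes 6 of 11 rose and 2 fell, but with each of the 6 libraries left out 5 or 6 rose and 0 or 1 fell. Those that rose included the activators Plau and Plat, by log2 0.92 and 0.62, and the metalloprotease inhibitor Timp3, by 1.69.

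Metabolic and stress groups differed among themselves. Their counts stand beside 17.8% higher and 15.1% lower over all genes tested. Of 18 glycolysis genes 10 rose and 2 fell, with a median log2 difference of 0.39. The lactate transporter Slc16a3 had 61.5, 56.4 and 55.9 TPM in the knockout, against 14.6, 14 and 15.2 TPM in wild type (log2 1.92, SE 0.08). Aldoc, Ldha and Pkm rose by log2 1.55, 0.60 and 0.69. Of 16 hypoxia targets 9 rose, among them the glucose transporter Slc2a1 (0.91) and Ndrg1 (1.52), and 2 fell, among them Egln3, an oxygen-sensing prolyl hydroxylase, by 2.09. With deposited TPM 6 rose and 4 fell. Of 22 genes of the ATF4 and amino acid response 11 rose and 2 fell, with the serine synthesis gene Psat1 at 301, 291 and 313 TPM in the knockout, against 152, 145 and 150 TPM in wild type. By contrast 13 of 21 ER chaperone and degradation genes fell and none rose, with a median of -0.41. Of these 13, 9 lay outside the stretches named above, Herpud1 among them (log2 -0.78), and Edem1 and Pdia4 (-0.82 and -0.85) lie on chromosome 6. Of 25 cholesterol synthesis genes 10 fell and 1 rose, with the feedback regulator Insig1 at 165, 167 and 160 TPM in the knockout, against 381, 353 and 337 TPM in wild type, and Hmgcs1 lower by log2 0.72. Of these 10 falls 5 lay on the stretches named above, and the 19 members elsewhere had a median of -0.11. Of 28 S phase genes 10 fell and 2 rose, and 8 of the 10 falls, Mcm6 and Mcm3 included, lay on the stretches named above. Mitochondrially encoded transcripts took 0.2% to 0.220% of deposited TPM in the knockout and 0.284% to 0.325% in wild type, and 6 of 11 measured fell, with mt-Nd1 at 39.3, 37.9 and 39.7 TPM in the knockout, against 84.5, 67.8 and 68.4 TPM in wild type. The listed mt-Co2 and mt-Atp6 missed the filter. They were at 0 in wild type and reached at most 6.69 and 13.4 TPM in the knockout.

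Most of the difference was also present without flow. In static culture 4477 of the same 15145 genes were called between the genotypes (29.6%), 2210 higher and 2267 lower in the knockout. There were 3200 genes called in the same direction in both conditions, 64.1% of the flow calls and 71.5% of the static calls, and 15 called in opposite directions. The flow and static comparisons share no library, and across genes their log2 differences had a Pearson correlation of 0.79, as a description. The difference between the 2 effects passed the test for 81 genes (0.535%), 30 more positive and 51 more negative under flow, 58 of them among the flow calls. At an unadjusted p under 0.05 there were 1508. These counts were not stable: they were 12 and 51 with deposited TPM, 207 and 148 with library weights, and between 12 and 75 and between 30 and 77 with single libraries left out. Of the 30, 15 rose under flow and did not pass in static culture. Of the 51, 34 were higher in the knockout in static culture, and of these 18 did not pass and 8 were lower under flow. The mean level in wild type was higher under flow than in static culture for 43 of the 51 and for 13 of the 30. Choosing genes by the difference between the effects favours such a split, so these counts are no separate result.

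Among genes with at least 5 TPM in 1 of the 4 groups, and leaving out predicted gene names, Cxcl2 had the largest positive difference between the effects. Its knockout mean under flow was 20.6 ± 5.15 TPM, against 1.08 ± 0.32 TPM in wild type under flow, while in static culture the means were 0.99 ± 0.16 TPM in the knockout and 0.51 ± 0.28 TPM in wild type (SD, n = 3 each; difference of the log2 effects 2.95, SE 0.28, adjusted p = 4.63e-05). Ccl20 (1.98), Rrad (1.72), Hspa1b (1.37), Nfkbia (1.28) and Rasl11a (1.21) followed by the same limits. Rasl11a, a Ras-like GTPase, was lower in the knockout in both conditions, by less under flow, and its difference did not pass under several alternatives, with deposited TPM among them (adjusted p = 0.0616). Rrad, a Ras-related GTPase, had 99.5, 97.0 and 91.3 TPM in the knockout under flow, against 33.3, 36.3 and 29.5 TPM in wild type under flow, and in static culture 24.5 ± 0.86 TPM in the knockout and 28.5 ± 1.62 TPM in wild type (SD, n = 3 each). Among heat shock genes 7 of 19 had a different effect under flow, and the list's median was 0.18 in static culture.

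On the negative side stood genes higher in the knockout in static culture and less so, level or lower under flow. Others fell only, or further, under flow. Dusp6, the ERK phosphatase, had 179, 172 and 168 TPM in the knockout under flow, against 223, 191 and 167 TPM in wild type under flow (log2 -0.15, adjusted p = 0.215). In static culture Dusp6 averaged 79.4 ± 2.77 TPM in the knockout and 23.6 ± 1.21 TPM in wild type (SD, n = 3 each), which gave a difference of the log2 effects of -1.86 (SE 0.13, adjusted p = 2.85e-06). Ctgf, a matricellular growth factor, averaged 762.8 ± 33.2 TPM in the knockout and 512.5 ± 19.1 TPM in wild type under flow, and 343.5 ± 29.6 TPM in the knockout and 81.1 ± 12.7 TPM in wild type in static culture (SD, n = 3 each; difference -1.50). Chac1, a glutathione-degrading enzyme, was level under flow, with 57.2, 49.7 and 50.3 TPM in the knockout, against 55.9, 53.9 and 46.6 TPM in wild type, and averaged 12.9 ± 1.70 TPM in the knockout and 4.45 ± 0.48 TPM in wild type in static culture (SD, n = 3 each; difference -1.34). Kctd11 (difference -1.27) changed direction. It was higher in the knockout in static culture (log2 0.77) and lower under flow (log2 -0.50, adjusted p = 0.00118). Lfng (-1.75) and the phosphatidate phosphatase Lpin1 (-1.22) were lower in the knockout under flow, and their fall was smaller in static culture for Lfng (log2 -1.24) and not seen for Lpin1 (0.10). In the cholesterol list 4 of 25 genes had a different effect, Insig1 and Hmgcs1 among them, and the list's median was 0.13 in static culture, against -0.21 under flow.

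**Figure D5:**
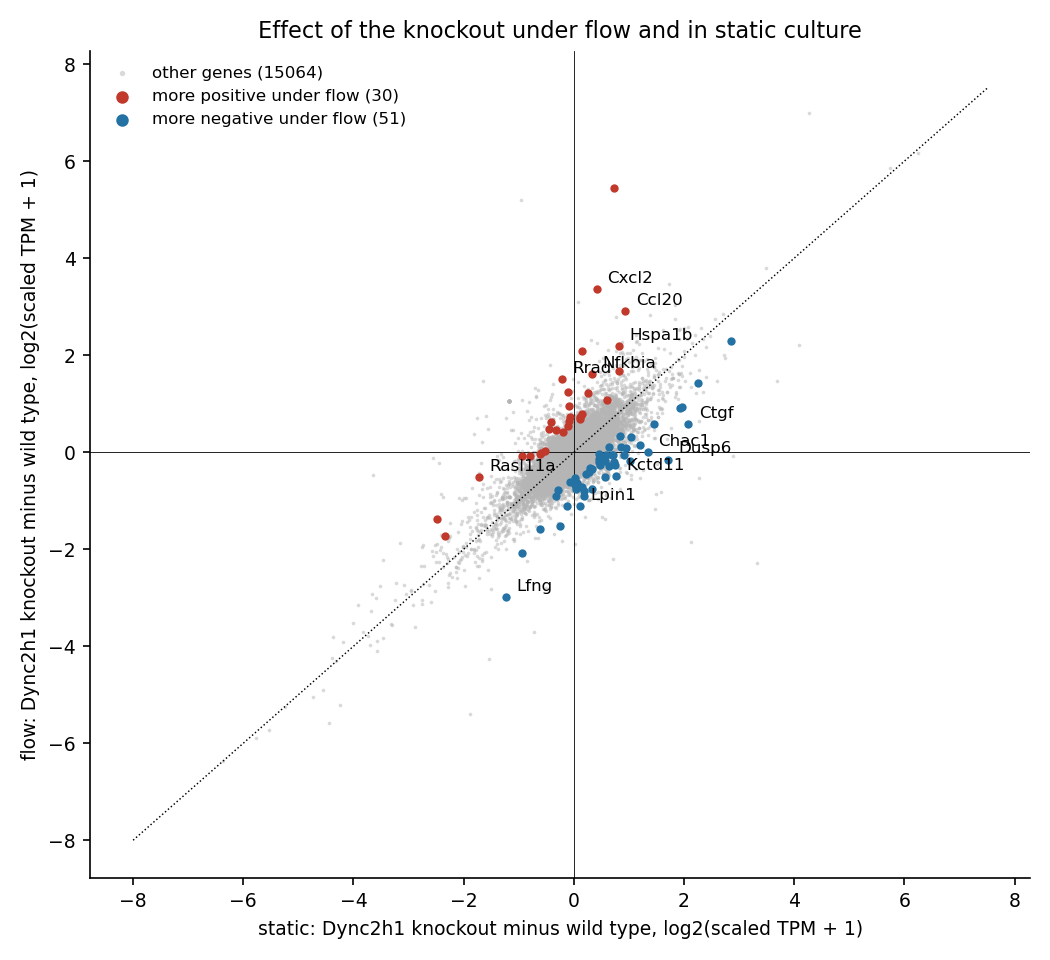
Log2 difference between Dync2h1 knockout and wild type under flow (vertical axis) against that in static culture (horizontal axis) for 15145 genes. Coloured points are the 81 genes whose effects differ at an adjusted p under 0.05 (red, 30 more positive under flow, blue, 51 more negative), and the dotted line marks equal effects. Cxcl2 and Ccl20 stand above the line and Dusp6, Ctgf and Lfng below it.

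The Ift140 knockout was set against the same wild-type libraries, so the knockouts were compared with each other directly. Under flow 2900 genes were higher and 2510 lower in the Dync2h1 than in the Ift140 knockout (35.7% in all). Cubn, Ank2, Grb10, Pygl and Twist1 were low in both lines. Their log2 differences from wild type were -6.37, -5.24, -5.05, -4.24 and -2.26 in the Dync2h1 knockout and -5.95, -4.69, -5.06, -4.08 and -2.33 in the Ift140 knockout. Of these the knockouts differed for Cubn alone, by a log2 of -0.42 (adjusted p = 0.049). Vim, Igfbp2, Col4a1, Col4a2, Acta2 and Camk1 were lower in the Dync2h1 than in the Ift140 knockout by log2 5.27, 6.07, 6.4, 5.76, 3.86 and 3.78. Col4a1 averaged 0.509 ± 0.285 TPM in the Dync2h1 knockout and 125 ± 12.5 TPM in the Ift140 knockout (SD, n = 3 each). Cxcl2, Ccl20, Areg and Rrad were higher in the Dync2h1 knockout, by log2 3.45, 3.29, 3.16 and 1.63, and 22 of the 28 interferon and antigen presentation genes were higher there too. Their list median against wild type was 0.68 in the Dync2h1 and -0.52 in the Ift140 knockout. In the Ift140 knockout 2 of the 28 were higher than in wild type and 10 lower. Ifit3 was higher in both lines, by log2 1.68 in the Dync2h1 and 1.94 in the Ift140 knockout. For Ifit3 the difference between the knockouts did not pass (log2 -0.27, adjusted p = 0.083). Among 19 heat shock genes, each line had 17 higher and 1 lower than in wild type, with list medians of 0.67 in the Dync2h1 and 0.74 in the Ift140 knockout. Set against each other, 3 of the 19 were higher and 8 lower in the Dync2h1 than in the Ift140 knockout, and Hspa1b was lower in the Dync2h1 knockout, at 369.8 ± 2.26 TPM, against 631.9 ± 48.4 TPM in the Ift140 knockout (SD, n = 3 each). Hspa1b lies on chromosome 17, where the median log2 difference from wild type was 0.36 in the Ift140 and 0.04 in the Dync2h1 knockout. The part of that chromosome in the comparison of the knockouts was not tested. Ap1m2 reached 70.6, 74.8 and 68.1 TPM in the Dync2h1 knockout, against 15.9, 11.7 and 14 TPM in the Ift140 knockout.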

How the data were processed

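RNA libraries were sequenced after standard Illumina preparation, per the labels' protocols. The submitters' processing notes name FastQC 0.11.5, Bowtie2 2.1.0 and RSEM 1.2.31, and the builds mm10 and GRCm38.p5. The authors deposited 1 signal value per gene and library, which is TPM: the gene rows of a library add up to its row named total, which was dropped. TPM keeps no depth. Positions and gene types come from GENCODE M21, where 47219 of 49845 names matched as given and 451 by an older symbol; 28 names had become dates.

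TPM were scaled between libraries by an unweighted trimmed mean of log ratios (trims of 0.3 and 0.05), with factors of 0.890 to 0.938 for the knockout and 1.01 for wild type under flow. TPM in the text are scaled, and the filter used deposited values. limma 3.58.1 (R 4.3.3) was fitted to log2(TPM + 1) of all 18 libraries as 6 group means, with a mean-variance trend, and was tested on simulated data. An exact permutation test of 3 against 3 cannot go below p = 0.1. Alternatives changed the scaling, pseudocount, filter, groups fitted, weights, threshold, replicate block and libraries.

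Named are the 15 largest rises and falls with an adjusted p under 0.05, at least 5 TPM in the higher group and no overlap, up to 4 members of each of 46 lists by smallest p, genes listed at 0 in 1 group, and the 6 largest differences between flow and static in each direction with at least 5 TPM in 1 of the 4 groups. Predicted gene names were skipped. S100a4, Hspa1a and the neighbours of Dync2h1 were named after their values were seen. Members and lists were chosen with earlier results of these data known. Lists are described by counts and medians without a test.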

Additional observations from a re-analysis of the deposited data

Results flagged for a closer look

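The flow and static effects of the Dync2h1 knockout differed past the threshold in a test of the difference itself for the following genes, the 6 largest in each direction with at least 5 TPM in 1 of the 4 groups and no predicted name, each given as the log2 effect under flow minus that in static culture. More positive under flow were Cxcl2 (2.95), Ccl20 (1.98), Rrad (1.72), Hspa1b (1.37), Nfkbia (1.28) and Rasl11a (1.21). More negative under flow were Dusp6 (-1.86), Lfng (-1.75), Ctgf (-1.50), Chac1 (-1.34), Kctd11 (-1.27) and Lpin1 (-1.22). The value for Rasl11a rests on low levels under flow, 1.36 ± 0.40 TPM in the knockout and 2.37 ± 0.61 TPM in wild type (SD, n = 3 each).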

How the results depend on the processing

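Counts are given as higher and lower. Knockout against wild type under flow gave 1528 and 2902 with deposited TPM, 1716 and 1497 at an adjusted p under 0.01, 410 and 444 with at least 2-fold, 2598 and 2226 with the replicate block, and 2161 and 1213 without chromosomes 1, 5, 6, 15 and the start of 9, a choice made after seeing the data. Leaving out each of the 6 compared libraries and Ift140 knockout flow replicate 3, the only other library left out, gave 1961 to 3113 and 1885 to 2679, the highest without that Ift140 library. The difference between flow and static, 30 and 51 genes, gave 12 and 51 with deposited TPM, 21 and 63 with quantile normalisation, 22 and 47 with a pseudocount of 0.1, 50 and 53 with one of 5, 76 and 79 with only the compared groups fitted, 207 and 148 with library weights, 20 and 37 with the replicate block, 9 and 26 at 0.01, 12 and 16 with 2-fold, and 20 and 31 without those chromosomes. Leaving out each of the 12 compared libraries and the same Ift140 library gave 12 to 75 and 30 to 77. The highest counts again came without the Ift140 library, and more than a 1.5-fold drop in at least 1 direction came without any 1 of the wild-type libraries, flow or static, or of the Dync2h1 knockout libraries.
Dync2h1 against Ift140 knockout under flow gave 1595 and 3353 with deposited TPM, 1548 and 1454 with only the compared groups, 1795 and 1541 at 0.01, 493 and 435 with 2-fold, and 2414 and 1500 without those chromosomes, and 2218 to 3077 and 1948 to 2750 with each of its 6 libraries left out. Chromosome 17, whose median was raised in the Ift140 knockout under flow, was kept in all of these. Whether same-numbered libraries were paired by day or batch cannot be settled from these values. Under flow, deviations from the group means of same-numbered Dync2h1 knockout and wild-type libraries correlated at -0.003, 0.0117 and -0.0299. The log2 difference of Dync2h1 ran from -1.78 to -1.54 with each of those 7 libraries left out.
The differences of Chac1 and Ift140 under flow, 0.01 each and not passed, changed sign. Chac1 was at -0.12 with deposited TPM, -0.014 with quantile normalisation, -0.0017 with the median of ratios, -0.019 with only the compared groups and -0.068 to 0.060 with the same 7 left out. Ift140 was at -0.11 with deposited TPM, -0.014 with only the compared groups and -0.099 to 0.138 likewise. Of 179 named flow results 158 kept their call in every scaling, pseudocount, filter, weight, block and left-out library that held them; the stricter thresholds were applied to counts only, and the filter at 5 TPM held 160 of the 179. Calls lost included Dync2li1, Rasl11a, Mir686 and, with quantile normalisation, Ctgf (adjusted p = 0.105). The cause was not tested.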

Other observations

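Replication-dependent histone genes, which most libraries of polyadenylated RNA miss, were measured here and were grouped after their values were seen. Of 61 kept genes 38 were higher and 3 lower in the knockout under flow, beside 17.8% and 15.1% of all genes. Their median log2 difference was 0.34. Wild-type replicate 1, which stood apart on the second principal component, was the lowest of the 3 wild-type libraries for 60 of the 61. Without it 26 were higher and 4 lower, with a median of 0.24. In static culture none of the 61 was higher and 5 were lower, with a median of 0.02, and in the Ift140 knockout under flow the median against the same wild-type libraries was 0.29. The flow and static effects differed past the threshold for 2 of the 61, Hist1h3d and Hist1h4j. Hist1h4j averaged 266.3 ± 19.2 TPM in the knockout and 164.6 ± 15.1 TPM in wild type under flow, and 261.2 ± 7.84 TPM in the knockout and 241.5 ± 14.4 TPM in wild type in static culture (SD, n = 3 each).

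Imprinted genes moved unevenly. Of 13 measured 2 rose (15.4%, against 17.8% of all genes) and 7 fell under flow (53.8%, against 15.1%). On the stretches of chromosomes 1, 5, 6, 9 or 15 named above lay 2 of the 7 falls. Next to Grb10, H19 had 6.07, 7.49 and 9.48 TPM in the knockout, against 29.4, 38.0 and 38.3 TPM in wild type, while the growth-restraining genes Phlda2 and Cdkn1c rose by log2 1.40 and 0.89. Csf2, which encodes the cytokine GM-CSF and was chosen after its values were seen, averaged 4.11 ± 1.13 TPM in the knockout and 0.19 ± 0.17 TPM in wild type under flow, against 0.33 ± 0.26 TPM in the knockout and 0.19 ± 0.12 TPM in wild type in static culture (SD, n = 3 each).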
